A study of Homo sapiens with 9 samples.

Results

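The H3122 lung adenocarcinoma line was compared with cells of the same line that had been made resistant to an inhibitor of the ALK kinase, with both resistant lines taken as 1 class. The members are the 6 arrays of the resistant lines PF1066R and X376R, 3 each, set against the 3 arrays of the sensitive Parental cells, which together make all 9 arrays of the series. Each resistant line had equal weight. The account centres on genes whose 6 resistant arrays all lay above, or all lay below, the 3 Parental arrays. Of 13769 genes tested, 1253 lay above (9.1%) and 1378 lay below (10%), 2631 in all (19.1%). All cells carry the EML4-ALK fusion of the E13;A20 type, in which an EML4 exon is joined to an ALK exon ahead of the kinase part. Parental cells are sensitive to PF1066, which is crizotinib, and to X-376. Both resistant lines were derived from H3122 by experiment, PF1066R with resistance to crizotinib and X376R with resistance to the other inhibitor. Resistance to each inhibitor is represented by 1 line, so what belongs to a line and what belongs to an inhibitor cannot be told apart. The labels state neither whether inhibitor was present when RNA was taken nor whether the replicates came from separate cultures. The p-values therefore measure only how these samples vary, and that variation may be technical.

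EML4-ALK is a fusion protein that pairs with itself and keeps the ALK kinase switched on without a ligand. Its signal runs through RAS and the MAP kinases ERK1 and ERK2, through PI3K and AKT, and through STAT3. ERK output induces its own brakes, the DUSP phosphatases and Sprouty proteins, so their transcripts are often read as a gauge of the pathway. Resistance to ALK inhibitors is known to arise through mutation or amplification of ALK, through other receptors that feed the same pathways, and through changes of cell state.

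Signals were summarised per gene as log2 of the background-corrected, quantile-normalised probe intensity, and a change is a difference of such values. An offset of 50 was added before the log, so changes of dim genes are understated. Each change is given with its standard error (SE) from a limma fit over all genes, and each adjusted p is that fit's, after Benjamini-Hochberg adjustment over all 13769 genes. Fold values are 2 to the power of the change. Mean probe intensity before normalisation was 230 to 298 on the Parental arrays, 175 to 234 on the PF1066R arrays and 163 to 180 on the X376R arrays, so brightness ran with the groups. Across the tested genes after normalisation, arrays of a line correlated at 0.98 to 0.989, Parental with PF1066R at 0.956 to 0.963, Parental with X376R at 0.929 to 0.942, and the resistant lines with each other at 0.949 to 0.96. Of 8 markers of lung adenocarcinoma epithelium, 7 or 8 lay above background on every array. Between 2 and 6 of 8 fibroblast markers, 2 and 6 of 7 leukocyte markers and 1 and 4 of 8 endothelial markers did so. PDGFRB, THY1, CD3E, KDR, CLDN5 and EMCN were above background on no array. The fibroblast marker COL1A1 and the leukocyte markers CD14 and CD68 were above it on all 9.

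In the test of both lines against Parental, 3653 genes passed an adjusted p of 0.05 (26.5%), of which 1812 were higher (13.2%) and 1841 lower (13.4%) in the resistant cells. At least a 2-fold change was seen for 93 of the higher (0.675%) and 164 of the lower genes (1.19%). Among the genes whose arrays did not overlap, 1133 of the 1253 above (8.23% of all tested) and 1210 of the 1378 below (8.79%) passed it, and 120 and 168 did not. Because separation and test rest on the same difference, these counts describe the members and are no support for them. The median change was 0.51 among the genes above and -0.50 among those below. With the test passed and a change of 2-fold or more, 76 genes lay above (0.552%) and 152 below (1.1%). The edge was fine: ZMYND19, the nearest gene inside on the upper side, cleared the highest Parental array by 0.000291 with a change of 0.52, while DDB1, with a change of 0.26, tied with it and stayed outside. On the lower side ZFHX4 cleared by 6.58e-05 with a change of -0.28. In the set above, all 3 Parental arrays were below background for 51 genes, and in the set below, all 6 resistant arrays were so for 52.

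The split between directions depended on the scaling. With each array centred on its median instead, the median of all genes moved to -0.15, and 332 genes were higher and 3944 lower, so that 7.76% of calls were higher against 49.6% before. Of the 2343 genes that both passed the test and did not overlap, 1459 passed in the same direction under that centring, and 1015 when array brightness entered the fit. For genes described below, calls lost under either setting are named beside the gene, and changes that moved by more than 1.5 times under centring are given at the end of the paragraph. Counts for gene lists below stand beside 13.2% higher and 13.4% lower of all genes tested. Under centring they stand beside 332 higher and 3944 lower of 13769 genes. A count near those shares describes all genes as much as the list.

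**Figure D1:**
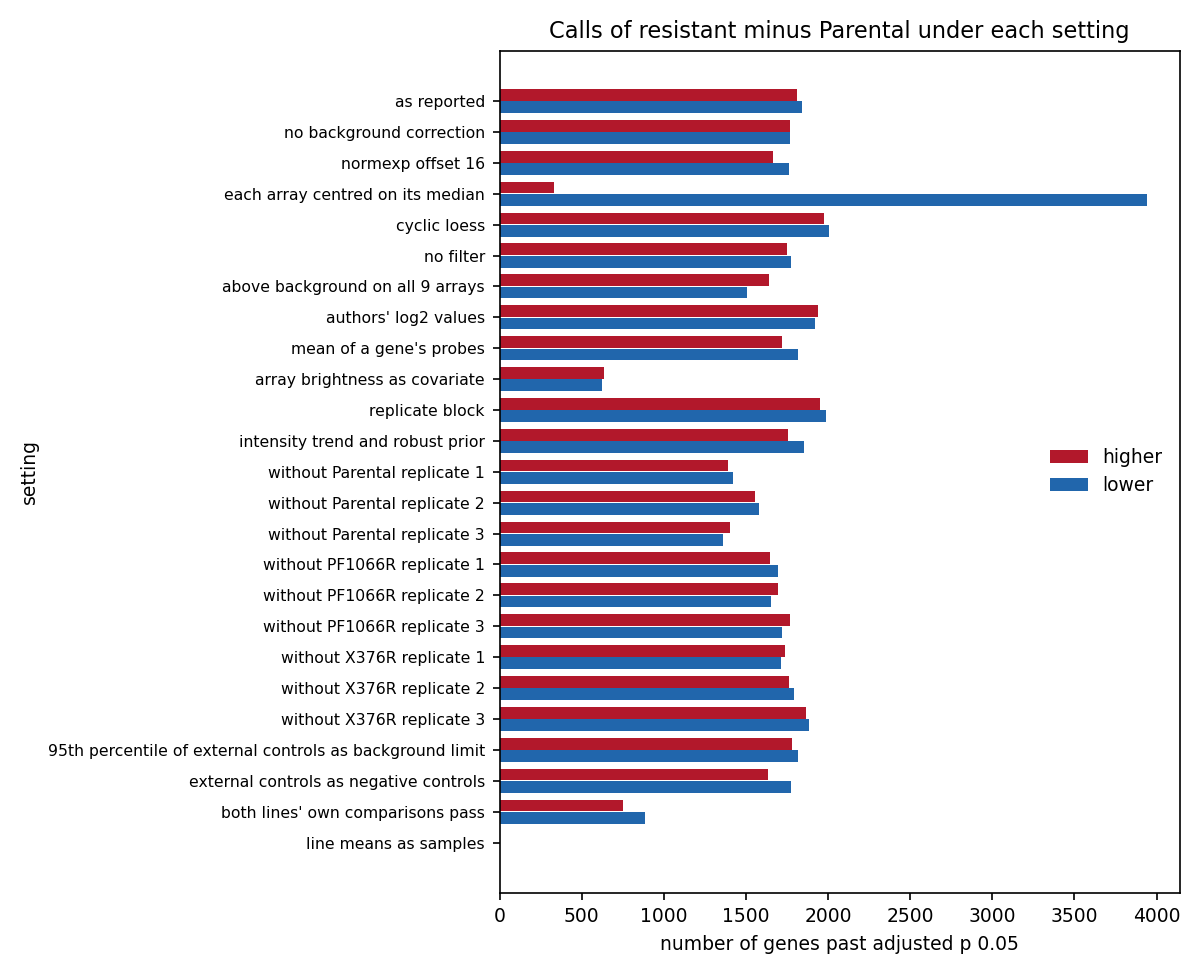
Number of genes past adjusted p 0.05 in resistant minus Parental (x axis), higher in red and lower in blue, for each processing setting (y axis). Higher and lower calls are near 1812 and 1841 as reported, and 332 and 3944 when each array is centred on its median.

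Each line against Parental gave 2541 genes for PF1066R (18.5%), 1251 higher (9.09%) and 1290 lower (9.37%), and 3860 for X376R (28%), 1910 higher (13.9%) and 1950 lower (14.2%). Both comparisons use the same 3 Parental arrays. The difference between the resistant lines uses no Parental array, and 2204 genes passed that test (16%), 1091 with X376R higher (7.92%) and 1113 with PF1066R higher (8.08%). Among the genes above Parental 265 of 1253 differed between the lines (21.1%), and X376R was the further from Parental in 203 of them. Among the genes below 246 of 1378 differed (17.9%), with X376R further in 210. Over all genes tested X376R was the further from Parental in 1522 of 2204, so this lean was not particular to the members. Of the genes that moved at least 2-fold, 56 of 76 above and 87 of 152 below differed between the lines.

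**Figure D2:**
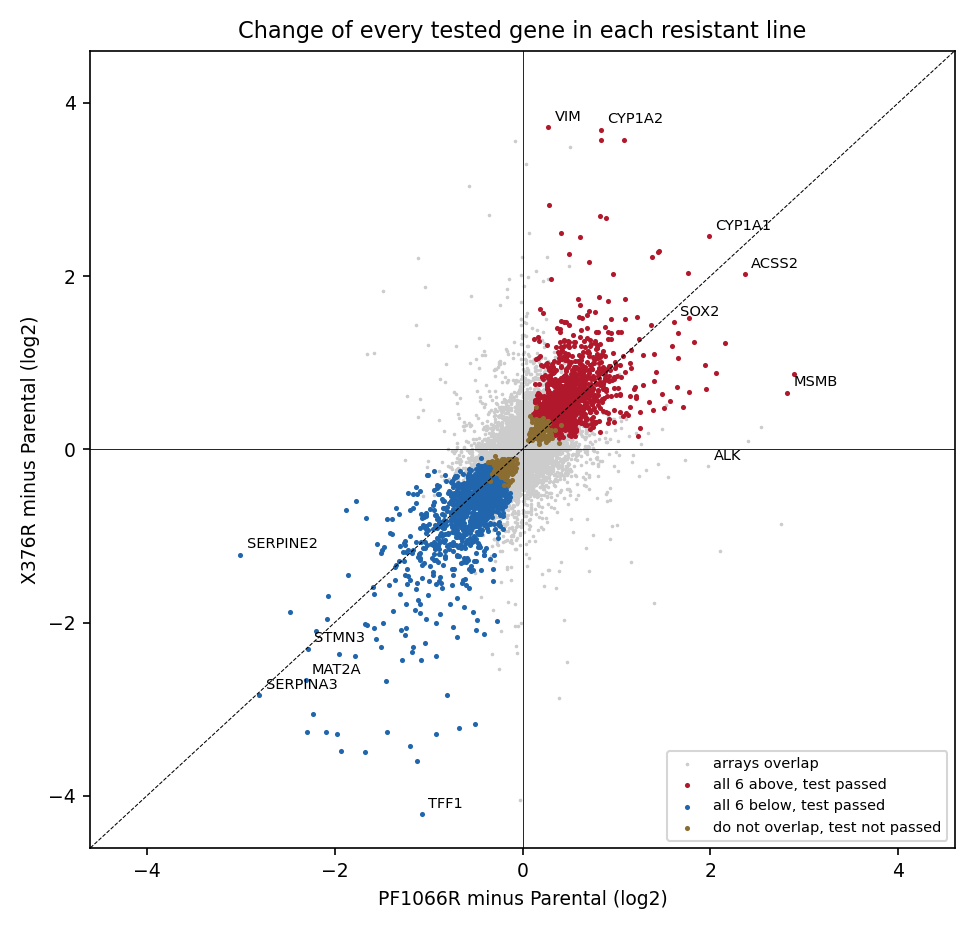
Log2 change of each tested gene in PF1066R (x axis) and X376R (y axis) against the same 3 Parental arrays; red and blue points are genes whose 6 resistant arrays lie above or below, with the test passed, and brown points those with the test not passed. SERPINA3 and STMN3 lie on the dashed line of equal change, while VIM, with 0.27 in PF1066R and 3.72 in X376R, lies far from it.

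The lowest change, by the mean of the lines and by the smaller of their changes, was that of SERPINA3, which encodes the secreted inhibitor alpha-1-antichymotrypsin. Its log2 signal was 9.32, 10.19 and 9.64 in Parental, 6.81, 6.95 and 6.99 in PF1066R and 6.80, 6.82 and 7.01 in X376R. Every resistant array thus lay more than 2 log2 units below the lowest Parental array, and the resistant lines overlapped each other. The change was -2.82 ± 0.14, or 7.07-fold (adjusted p = 3.31e-10). MAT2A, the enzyme that makes S-adenosylmethionine outside the liver, read 12.14, 12.21 and 12.11 in Parental, 9.79, 9.90 and 9.84 in PF1066R and 9.88, 9.27 and 9.33 in X376R. Its change was -2.49 ± 0.12, and the resistant lines did not pass the test against each other (adjusted p = 0.0981). STMN3, a stathmin-family protein that binds tubulin, read 9.80, 9.50 and 9.33 in Parental against 7.07, 7.20 and 7.51 in PF1066R and 7.53, 7.16 and 7.03 in X376R, a change of -2.29 ± 0.13. ODC1, the first enzyme of polyamine synthesis, read 10.89, 10.94 and 10.87, then 8.74, 8.81 and 8.55 and 8.99, 8.71 and 8.72, a change of -2.15 ± 0.10. In these 4 genes the resistant lines lay together and well apart from Parental.

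Other genes fell in both lines by similar amounts without being as extreme. PRRX2, a homeobox factor, changed by -1.36 ± 0.10 (-1.36 in PF1066R and -1.36 in X376R), and the kidney-type cadherin CDH6 by -1.59 ± 0.12 (-1.59 and -1.59). BHLHE40, a repressor tied to the circadian clock and hypoxia, changed by -1.19 ± 0.11. RRS1, a ribosome assembly factor, changed by -1.08 ± 0.11. ADAP1, which binds inositol phosphates, changed by -1.34 ± 0.10, although another probe of ADAP1 gave -0.52. Chosen for the smallest difference between the lines relative to the shared change, these genes are examples of evenness and no test of it. The same rule gave 2 genes above Parental. E2F2, a cell cycle transcription factor, read 7.21, 7.43 and 7.26 in Parental and 8.40 to 8.52 over the 6 resistant arrays, a change of 1.15 ± 0.09. COMMD9, a member of a complex that recycles membrane proteins, changed by 1.07 ± 0.12. Under median centring E2F2 changed by 0.74 and COMMD9 by 0.66.

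**Figure D3:**
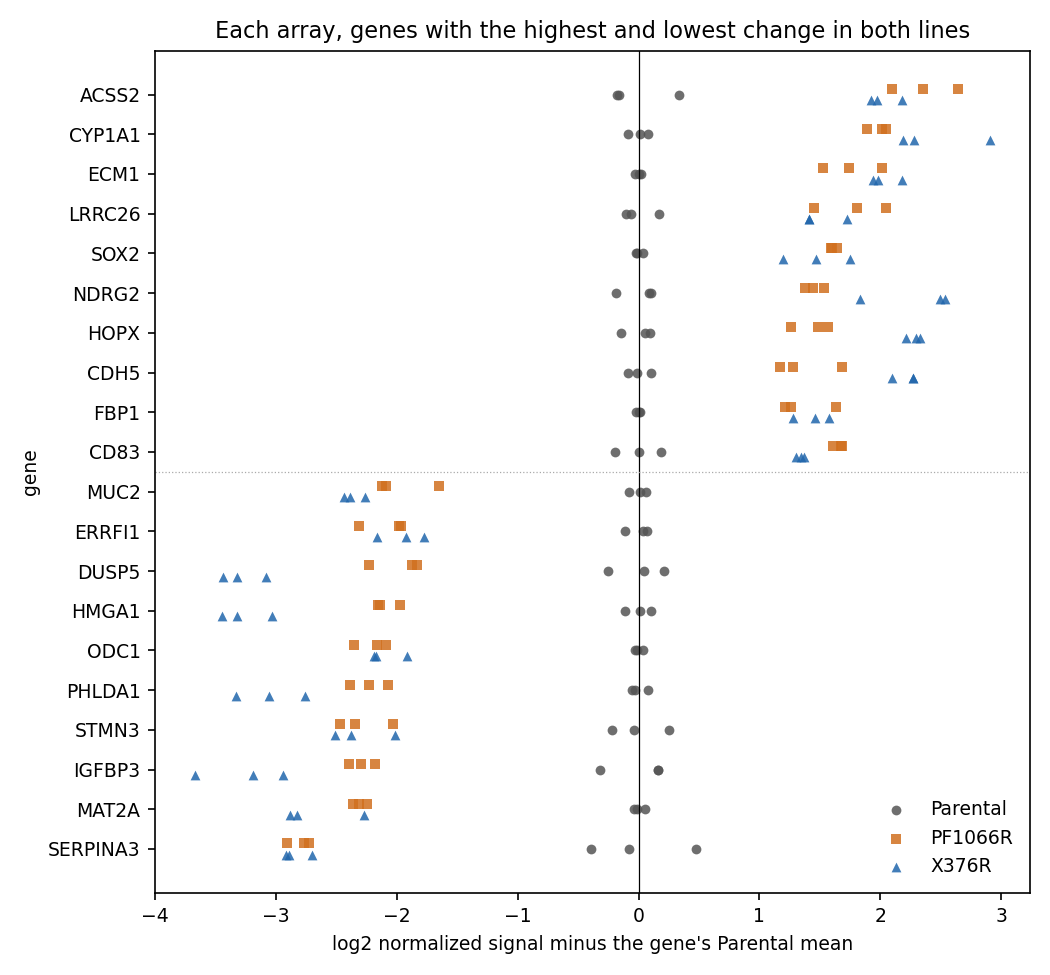
Log2 normalised signal minus the gene's Parental mean (x axis) on each array for the 10 genes highest and the 10 lowest by the smaller of the lines' changes (y axis); circles are Parental, squares PF1066R and triangles X376R. All resistant arrays of the upper genes lie above 1 and all of the lower genes below -1, with X376R further out for DUSP5, HMGA1, PHLDA1 and IGFBP3.

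Several of the lowest genes were lower still in X376R. IGFBP3, a binding protein that limits insulin-like growth factors, read 11.64, 11.63 and 11.15 in Parental, 9.08, 9.18 and 9.29 in PF1066R and 8.29, 8.53 and 7.80 in X376R. Its change was -2.78 ± 0.14 and the X376R arrays all lay below the PF1066R arrays. HMGA1, a chromatin architecture protein, changed by -2.68 ± 0.10 (-2.09 in PF1066R and -3.27 in X376R), while another HMGA1 probe gave -0.39, and the mean of its probes -1.53. CYBA, the p22 subunit of the NADPH oxidases, changed by -2.71 ± 0.13 (-1.94 and -3.48). ALPL, the tissue-nonspecific alkaline phosphatase, changed by -2.31 ± 0.11 (-1.20 and -3.43). PRSS3, a trypsinogen with near-identical relatives, was the lower in PF1066R, with -2.48 there and -1.87 in X376R.

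Above Parental, the highest gene by the smaller of the lines' changes was ACSS2, which turns acetate into acetyl-CoA. Its log2 signal was 7.67, 7.17 and 7.16 in Parental, 9.98, 9.43 and 9.69 in PF1066R and 9.25, 9.51 and 9.31 in X376R, a change of 2.19 ± 0.13 or 4.58-fold. Of the other ACSS2 probes 1 gave 2.28 and 1 gave 0.51. ECM1, a secreted matrix protein, read 6.52, 6.49 and 6.54 in Parental and 8.04 to 8.70 over the resistant arrays (1.90 ± 0.11), and another probe gave 0.97. LRRC26, an accessory subunit of potassium channels, changed by 1.64 ± 0.12. FBP1, a gluconeogenesis enzyme, read 6.93, 6.95 and 6.96 in Parental and 8.16 to 8.58 in the resistant arrays (1.40 ± 0.11). CD83, a surface protein best known from dendritic cells, read 6.82 ± 0.19 (mean ± SD, n = 3) in Parental and 8.11 to 8.50 in the resistant arrays. NDRG2, a stress- and differentiation-related protein, changed by 1.87 ± 0.13 (1.45 and 2.29). No marker of leukocytes passed the test of both lines against Parental.

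Some of the highest genes were not above background in Parental. PAEP, the secreted lipocalin glycodelin, was dim on all 3 Parental arrays (5.79, 5.87 and 5.85). It read 6.85, 7.28 and 6.62 in PF1066R and 9.40, 9.55 and 9.27 in X376R. In the mean of both lines it was at least 4.27-fold higher (measured change 2.32 ± 0.12, adjusted p = 5.82e-10). Its measured change was 1.08 in PF1066R and 3.57 in X376R. CDH5, the cadherin of endothelial junctions, was above background on 1 Parental array and read 7.60, 7.08 and 7.19 in PF1066R and 8.18, 8.01 and 8.18 in X376R (1.80 ± 0.11). Of the 8 endothelial markers, CDH5 among them, the summed intensity before normalisation was 672 to 764 in Parental, 668 to 855 in PF1066R and 784 to 831 in X376R. CDH5 itself made up 78 to 96.4 of that sum in Parental, 131 to 245 in PF1066R and 234 to 264 in X376R. KDR, CLDN5 and EMCN were below background throughout. With an offset of 16, the change of CDH5 was 2.73. Such a bound sets the resistant mean against the lowest signal above background on the Parental arrays.

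VIM, the intermediate filament vimentin, lay above Parental on all 6 resistant arrays mainly through X376R. It read 6.60, 6.57 and 6.48 in Parental, 6.68, 6.86 and 6.93 in PF1066R and 10.24, 10.38 and 10.19 in X376R. Its change over both lines was 2.00 ± 0.09, but 0.27 in PF1066R and 3.72 in X376R, and the difference between the lines passed the test (adjusted p = 1.37e-12). The PF1066R change did not pass its own limma test against Parental (adjusted p = 0.0911). Among 15 mesenchymal genes 4 were higher and 1 lower, and VIM was the only gene of them above Parental on all 6 arrays. The reverse held for RNASE1, a secreted ribonuclease, with 2.88 in PF1066R and 0.87 in X376R (another probe gave 0.96 for both lines), and for MSMB, a secreted protein of prostate and airway, with 2.82 and 0.65.

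The fusion and receptor genes were followed whatever their change. ALK read 7.21, 7.34 and 7.19 in Parental, 9.39, 9.15 and 9.11 in PF1066R and 7.04, 6.91 and 7.21 in X376R, so the X376R arrays overlapped Parental and the mean change of 0.89 ± 0.10 came from PF1066R. The lines differed by -2.16 (adjusted p = 6.28e-10). EML4 changed by -0.23 ± 0.11 (adjusted p = 0.151), and by -0.74 with each array centred on its median (adjusted p = 0.00414). MET, the receptor of hepatocyte growth factor and a target of crizotinib itself, read 8.16, 8.60 and 8.90 in Parental and 7.30 to 7.60 over the resistant arrays (-1.10 ± 0.13). EPHA2, an ephrin receptor, was also below Parental on all arrays (-0.90 ± 0.10). KIT, the receptor of stem cell factor, was above at a low level, 6.17 to 6.35 in Parental and 6.51 to 6.86 in resistant arrays (0.46 ± 0.10, adjusted p = 0.00199, and 0.28 on another probe). FGFR3 was above by 0.69 ± 0.11, a call that was lost under median centring (0.22) and with brightness in the fit (0.45), and which another probe did not give (-0.03).

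For EGFR, ERBB3, IGF1R and the adaptor IRS2 the test of both lines was not passed, with changes of 0.01 ± 0.10, 0.05 ± 0.10, -0.13 ± 0.09 and 0.01 ± 0.11. EGFR read 6.91, 7.06 and 7.10 in Parental, 7.12, 7.18 and 7.39 in PF1066R and 6.87, 6.69 and 6.91 in X376R. All its PF1066R arrays thus lay above Parental (0.21) and all its X376R arrays narrowly below (-0.20), and the lines differed (adjusted p = 0.0187). IGF1R, the insulin-like growth factor receptor, lay below Parental on all 6 resistant arrays (6.16 to 6.22 in Parental and 5.96 to 6.12), but only 1 of the 6 was above background (adjusted p = 0.301). IRS1, the other insulin receptor adaptor, passed narrowly (0.31 ± 0.10, adjusted p = 0.033) and lost the call without Parental replicate 1 (adjusted p = 0.162), Parental replicate 2 (0.0981), PF1066R replicate 1 (0.0764) or X376R replicate 1 (0.0706), and under centring (0.534). Beside 13.2% higher and 13.4% lower of all tested genes, 7 of 24 receptor tyrosine kinases and adaptors were higher and 3 lower. Among 27 ligands and insulin-like growth factor proteins 6 were higher and 3 lower. EFNA1, the ephrin ligand of EPHA2, was above (8.74 to 8.99 in Parental and 9.72 to 10.73 in resistant arrays, 1.41 ± 0.11), as was the lymphatic growth factor VEGFC at low level (0.89 ± 0.09, 0.22 in PF1066R and 1.57 in X376R). The PF1066R change of VEGFC did not pass its own limma test against Parental (adjusted p = 0.161). FGF19 was below background on all 6 resistant arrays. In the mean of both lines it was at least 1.49-fold lower (measured change -0.78 ± 0.09, adjusted p = 7.32e-06). Of 18 PI3K, AKT and mTOR pathway genes 3 were higher and 3 lower, with a median change of 0.02. Centred on array medians, ALK changed by 0.54 and EFNA1 by 0.90.

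Several feedback genes of the MAP kinase pathway were lower in the resistant lines. Of 29 measured MAPK output and feedback genes 17 were lower, 1 was higher and 11 did not pass, with a median of -0.69 against -0.004 over all genes tested. DUSP5, which dephosphorylates ERK in the nucleus, read 10.19, 9.72 and 10.02 in Parental, 7.75, 8.15 and 8.10 in PF1066R and 6.66, 6.54 and 6.89 in X376R (-2.63 ± 0.12). DUSP6, the phosphatase that does so in the cytoplasm, read 11.01, 11.16 and 11.19, 9.80, 9.67 and 10.03 and 8.77, 8.84 and 8.46 (-1.85 ± 0.11). ERRFI1, the feedback inhibitor of EGF receptors also called MIG6, read 11.47, 11.29 and 11.44, 9.42, 9.09 and 9.43 and 9.63, 9.23 and 9.47 (-2.02 ± 0.11) with the resistant lines together. PHLDA1, a PH-domain protein that ERK signalling induces, changed by -2.64 ± 0.12, and by -1.42 on another probe. DUSP5, DUSP6 and PHLDA1 were lower in X376R than in PF1066R, whereas ERRFI1 did not pass that test. Among feedback inhibitors that did not pass for both lines, SPRY4, a Sprouty protein, read 7.35, 7.59 and 7.22 in Parental, 7.95, 8.12 and 8.35 in PF1066R and 6.58, 6.29 and 6.31 in X376R. All its PF1066R arrays lay above Parental (0.75) and all its X376R arrays below (-0.99), with a mean of -0.12 ± 0.11, and the lines differed (adjusted p = 4.27e-08). Its relative SPRY2 had a change of -0.26 ± 0.10 (-0.07 and -0.45), the phosphatases DUSP2 and DUSP7 -0.16 ± 0.11 and 0.08 ± 0.10, and SPRED3 -0.08 ± 0.09. DUSP2, DUSP7 and SPRED3 were near background, so a fall could hardly show. DUSP2 was above background on 3 Parental, 2 PF1066R and 1 X376R arrays. In the same order DUSP7 was so on 2, 2 and 1, and SPRED3 on 2, 1 and 1. Under median centring SPRY2 (-0.73) and SPRY4 (-0.43) passed as lower. With arrays centred on their medians, 22 list members were lower and none higher.

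**Figure D4:**
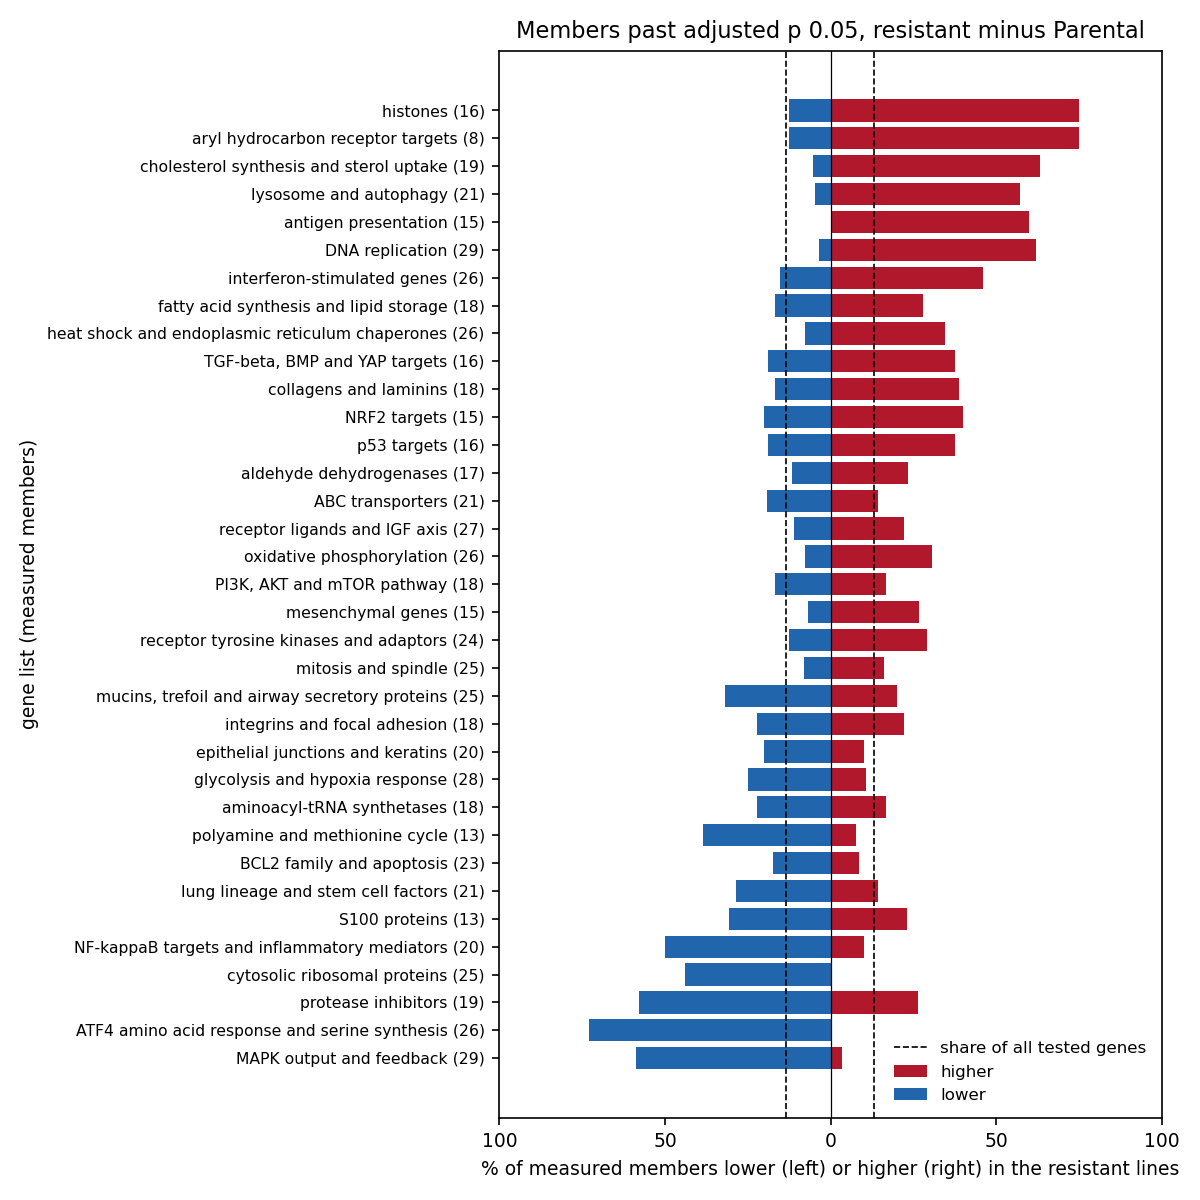
Percentage of the measured members of each gene list that passed adjusted p 0.05 lower (left, blue) or higher (right, red) in the resistant lines, ordered by median change, with the number measured in brackets; dashed lines mark 13.4% lower and 13.2% higher among all tested genes. The MAPK and ATF4 lists lie at the lower end and the histones, aryl hydrocarbon receptor and cholesterol lists at the upper end.

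The amino acid response was lower as well. ATF4 is the transcription factor made when amino acids are short, and it turns on amino acid import, serine synthesis and tRNA charging. Of 26 genes of this response 19 were lower and none higher, with a median of -0.66, and 13 lay below Parental on every array. TRIB3, a pseudokinase that ATF4 induces, read 9.19, 9.64 and 9.69 in Parental, 7.56, 7.56 and 8.04 in PF1066R and 7.36, 6.85 and 7.15 in X376R (-2.08 ± 0.14). The mTOR inhibitor DDIT4 changed by -1.76 ± 0.17 (-1.08 and -2.43), CEBPG, a partner of ATF4 on DNA, by -1.43 ± 0.14, the cationic amino acid carrier SLC7A1 by -1.10 ± 0.12 and asparagine synthetase ASNS by -1.02 ± 0.12. Another ASNS probe gave -0.67. Of 18 aminoacyl-tRNA synthetases 4 were lower and 3 higher. The seryl and alanyl enzymes were the lowest of them, SARS1 at -1.04 ± 0.14 and AARS1 at -0.92 ± 0.10. Among 13 polyamine and methionine cycle genes 5 were lower and 1 higher, and MAT2A and ODC1 were the members below Parental on every array. Under median centring AARS1 changed by -1.45.

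Promoters of this group were read from RefSeq (GRCh38.p14), which had 1 of 300 bases, 250 before and 50 after the start, for 10867 of the tested genes. A composite element bound by ATF4 with a C/EBP partner, searched as TGATGNAA on both strands, was in 2.12% of these, in 3.67% of all 27305 promoters, and in 5 of 22 promoters of the ATF4 list (22.7%). It was in 23 of 1061 genes below Parental (2.17%), near the share of tested genes, and in 12 of 1057 above (1.14%). At least 2-fold below Parental it was in 7 of 115 genes (6.09%), and at least 2-fold above in none of 67. The 250 bases before the start are shown for ASNS, where the match begins at -68 on the gene's strand, and for AARS1, where it begins at -187 on the opposite strand. They were chosen after their values were seen, and capitals mark the match. ASNS is on the minus strand at chr7:97872409-97872658 and AARS1 on the minus strand at chr16:70289507-70289756.
ASNS: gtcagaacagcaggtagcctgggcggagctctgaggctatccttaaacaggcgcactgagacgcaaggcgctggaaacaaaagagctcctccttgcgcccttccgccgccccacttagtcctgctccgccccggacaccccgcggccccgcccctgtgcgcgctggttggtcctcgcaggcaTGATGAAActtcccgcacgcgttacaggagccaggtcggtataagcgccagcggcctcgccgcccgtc
AARS1: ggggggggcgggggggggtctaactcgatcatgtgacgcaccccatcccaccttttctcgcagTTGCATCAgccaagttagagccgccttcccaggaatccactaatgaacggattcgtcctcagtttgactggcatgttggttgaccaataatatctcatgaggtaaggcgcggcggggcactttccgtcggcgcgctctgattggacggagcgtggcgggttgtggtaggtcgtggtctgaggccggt
A match describes letters in this window, and no factor was measured on it. ASNS read 8.86 to 9.47 in the resistant arrays, which lay below every Parental array, and AARS1 read 10.61, 10.77 and 10.56 against 9.35 to 9.96.

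Inflammatory and secreted proteins were counted next. Of 20 NF-kappaB targets and inflammatory mediators 10 were lower and 2 higher, and of 19 protease inhibitors 11 were lower and 5 higher. Complement factor CFB read 10.05, 9.71 and 9.56 in Parental, 8.23, 8.09 and 8.67 in PF1066R and 6.35, 6.53 and 6.66 in X376R (-2.35 ± 0.13). TNFAIP2, a protein that tumour necrosis factor induces, changed by -1.19 ± 0.13, and the neutrophil chemokine CXCL8 by -1.10 ± 0.13 (-0.65 and -1.55). SLPI, the secreted inhibitor of leukocyte proteases, read 10.01, 9.66 and 9.85, 8.17, 7.87 and 8.43 and 6.28, 6.31 and 6.44 (-2.59 ± 0.12), the lowest in X376R. SERPINE2, which inhibits thrombin and urokinase, was the lower in PF1066R (-3.00, against -1.22 in X376R, and -2.11 ± 0.11 for both). TFPI, the tissue factor pathway inhibitor, was below (-0.81 ± 0.10), with -0.51 and -0.40 on other probes. Under median centring CXCL8 changed by -1.65 and TFPI by -1.28.

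Among 25 mucins, trefoil and airway secretory proteins 8 were lower and 5 higher. TFF1, a trefoil peptide of mucus, read 10.16, 10.23 and 9.94 in Parental and 9.04 ± 0.04 (mean ± SD, n = 3) in PF1066R, and was not above background on any X376R array. Its measured change was -2.64 ± 0.09, or -2.52 with X376R at the lowest signal above background. MUC2, the gel-forming gut mucin, was likewise dim on all X376R arrays, with 8.49, 8.35 and 8.44 in Parental and 6.34, 6.77 and 6.30 in PF1066R. Its measured change was -2.16 ± 0.11, or -2.11 at that bound. FCGBP, a protein of mucus that binds antibody tails, changed by -2.10 ± 0.10, and BPIFA1, an airway lining protein, by -2.36 ± 0.14. All 4 were lower in X376R than in PF1066R. RNASE1 and MSMB, described above, were the highest of this list.

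Interferon-stimulated genes were split. Of 26 measured, 12 were higher and 4 lower (6 and 6 under median centring), and 6 lay above Parental on every array. The list median was 0.575 in PF1066R and 0.011 in X376R, and 18 of the 26 differed between the lines. IFI6, a mitochondrial survival protein, read 8.93, 9.07 and 9.56 in Parental, 11.24, 11.45 and 11.35 in PF1066R and 10.27, 10.61 and 10.37 in X376R (1.70 ± 0.13). The antiviral GTPase MX1 changed by 1.47 ± 0.10 (2.06 and 0.88), and IFIT1, which binds viral RNA ends, by 1.32 ± 0.10 (1.95 and 0.69). These 3 were higher in PF1066R than in X376R. IFITM2, a membrane protein that blocks virus entry and has near-identical neighbours, was below Parental by -1.23 ± 0.11 (-0.49 and -1.97). Of 15 antigen presentation genes 9 were higher and none lower (4 and none under centring). The immunoproteasome subunits PSMB10 and PSMB8 changed by 0.97 ± 0.10 and 0.94 ± 0.09, and the class I gene HLA-F, which resembles other HLA genes, by 0.95 ± 0.11. Other PSMB8 probes gave 1.03, 0.97 and 0.09. Under centring PSMB8 changed by 0.55, HLA-F by 0.55 and PSMB10 by 0.50.

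The interferon response element, searched on both strands as GAAA, any 2 bases and GAAA, was in 14 of 20 promoters of the interferon list (70%) against 3.01% of tested genes. The list holds genes that were higher, that were lower and that did not pass the test, and 37 of 1057 genes above Parental held the element (3.5%). IFI6 is shown for its 3 matches, in capitals, beginning at -156, -115 and -93. It lies on the minus strand at chr1:27672193-27672442.
IFI6: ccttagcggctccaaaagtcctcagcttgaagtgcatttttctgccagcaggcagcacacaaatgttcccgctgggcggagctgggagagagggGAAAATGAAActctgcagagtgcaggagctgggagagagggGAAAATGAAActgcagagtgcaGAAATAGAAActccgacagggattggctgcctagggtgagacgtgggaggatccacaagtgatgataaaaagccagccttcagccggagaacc

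Sterol synthesis was higher. SREBP2 is the factor that turns on these enzymes when sterols are low. Of 19 measured cholesterol genes 12 were higher and 1 lower, with a median of 0.46, and 7 were higher and 1 lower under median centring. MSMO1, a sterol demethylation enzyme, read 7.39, 7.66 and 7.37 in Parental, 9.48, 9.35 and 9.42 in PF1066R and 8.23, 8.59 and 8.52 in X376R (1.46 ± 0.10). Lanosterol synthase LSS read 6.32, 6.37 and 6.35 in Parental and 7.45 to 7.78 over both lines (1.26 ± 0.09). ACAT2 and HMGCS1, which act at the start of the pathway, changed by 1.18 ± 0.10 and 1.06 ± 0.11, both further in PF1066R. Other probes of LSS (0.08 and 0.09), ACAT2 (0.13) and MSMO1 (-0.09, with 1.13 on a further probe) did not all give these changes. Of 18 fatty acid genes 5 were higher and 3 lower, a balance that turned to 2 higher and 4 lower under centring. ACSS2 and ACSL1, which activates long fatty acids (6.23 to 6.32 in Parental and 7.41 to 8.12 in resistant arrays, 1.39 ± 0.10), were the highest. Under centring ACAT2 changed by 0.73 and HMGCS1 by 0.59.

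The cytochromes CYP1A1 and CYP1A2, which the aryl hydrocarbon receptor induces, were both above Parental. CYP1A1 read 7.31, 7.15 and 7.25 in Parental, 9.12, 9.28 and 9.25 in PF1066R and 9.42, 9.51 and 10.14 in X376R (2.22 ± 0.13). CYP1A2 was below background on all Parental arrays (5.78, 5.86 and 5.86). It was near 6.65, 6.66 and 6.68 in PF1066R and 9.38, 9.76 and 9.43 in X376R. In the mean of both lines it was at least 4.07-fold higher (measured change 2.26 ± 0.10, adjusted p = 1.74e-10). Its measured change was 0.83 in PF1066R and 3.69 in X376R. Of 8 targets of the receptor 6 were higher and 1 lower, and 3 lay above and 1 below Parental on every array. Of 15 NRF2 targets, which guard against oxidants, 6 were higher and 3 lower, and 1 and 7 under centring. AKR1C3, a reductase with near-identical relatives, was above (0.76 ± 0.10), and lost the call under centring (0.33). SRXN1, which repairs peroxiredoxins, and the glutathione reductase GSR were below (-0.95 ± 0.15 and -0.72 ± 0.10), though another GSR probe gave -0.03, and under centring GSR changed by -1.10. Among 17 aldehyde dehydrogenases 4 were higher and 2 lower (2 and 7 under centring, where 3944 of all 13769 genes were lower). The mitochondrial ALDH2 was below by a change of -1.65 ± 0.09 (-0.92 and -2.38), and ALDH1A3, which makes retinoic acid, by -1.23 ± 0.12 (-1.67 and -0.80).

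Replication genes were higher under quantile scaling. Of 29 measured 18 were higher and 1 lower, with a median of 0.37, but under median centring 3 were higher and 2 lower, with a median of 0.06. The helicase subunits MCM5 and MCM2 read 7.38 to 7.61 and 6.92 to 7.23 in Parental and 8.18 to 8.90 and 7.58 to 8.49 in the resistant arrays (1.01 ± 0.10 and 0.96 ± 0.12). CDC45, which activates that helicase, changed by 0.98 ± 0.10. Under centring MCM5 changed by 0.57, MCM2 by 0.57 and CDC45 by 0.51. MCM6, another subunit, changed by 0.77 ± 0.10, and thymidylate synthase TYMS by 0.88 ± 0.11, and these calls were lost under centring (0.28 and 0.37). Among 25 mitosis and spindle genes 4 were higher and 2 lower, with none higher and 10 lower under centring. Of all 13769 tested genes, 332 were then higher and 3944 lower. The E2F element TTTNGCGC was in 10 of 26 replication promoters (38.5%) and in 2.94% of tested promoters. MCM6 is shown for its pair of sites, each matching on both strands with overlap, which begin at -152 and -90, on the minus strand at chr2:135876444-135876693.
MCM6: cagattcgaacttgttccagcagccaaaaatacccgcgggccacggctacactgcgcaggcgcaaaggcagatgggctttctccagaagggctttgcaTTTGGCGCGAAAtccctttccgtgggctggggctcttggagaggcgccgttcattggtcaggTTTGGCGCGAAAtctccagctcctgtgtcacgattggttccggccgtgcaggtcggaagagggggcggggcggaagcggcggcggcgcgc
MCM6 read 8.29, 8.32 and 8.34 in Parental, 9.17, 9.13 and 8.99 in PF1066R and 9.22, 9.12 and 8.86 in X376R, with the resistant lines overlapping each other.

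Histone genes stood far apart between the lines. Of 16 measured 12 were higher and 2 lower (11 and 4 under centring), and the median change was 0.25 in PF1066R and 1.85 in X376R. H2BC21 read 7.55, 7.47 and 7.65 in Parental, 8.40, 8.51 and 8.23 in PF1066R and 10.31, 10.20 and 10.25 in X376R (1.76 ± 0.09). H2BC5 and H2AC6, core histones of the large cluster on chromosome 6, changed by 1.78 ± 0.12 and 1.53 ± 0.11. H2AC18, which has a near-identical copy and is uncertain as a single gene, changed by 2.20 ± 0.13 (0.84 and 3.57). For these 4 genes X376R was above PF1066R.

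Of 25 cytosolic ribosomal proteins 11 were lower, none was higher and 14 did not pass, with 25 lower under centring and 1 lower with brightness in the fit. RPL13, RPS2 and RPL22 changed by -0.84 ± 0.13, -0.60 ± 0.14 and -0.58 ± 0.10. Another RPL13 probe gave 0.16, many of these genes have processed copies, and the calls of RPS2 and RPL22 were lost with brightness in the fit (-0.39 and -0.47). Under centring RPL13 changed by -1.31, RPS2 by -1.21 and RPL22 by -1.09. Of 26 respiratory chain and ATP synthase subunits 8 were higher and 2 lower, which turned to none and 10 under centring. That setting made 332 of all 13769 genes higher and 3944 lower. ATP5MC1 and NDUFA2, a subunit each of ATP synthase and complex I, changed by 0.89 ± 0.11 and 0.83 ± 0.11, both without a call under centring (0.40 and 0.32). Another ATP5MC1 probe gave 0.37. Of 28 glycolysis and hypoxia genes 7 were lower and 3 higher. Hexokinase HK2 was below by a change of -1.29 ± 0.11 (-0.50 and -2.08, and -0.61 for both on another probe), the glucose carrier SLC2A1 by -0.71 ± 0.12, and P4HA2, which hydroxylates collagen, was above by 1.07 ± 0.10. Other P4HA2 probes gave 1.06 and 0.105. Under centring SLC2A1 changed by -1.22 and P4HA2 by 0.61.

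Lysosome genes were higher, 12 of 21 against 1 lower, although 2 were higher and 3 lower under centring. LAMP2, a membrane protein of the lysosome, read 7.91, 7.84 and 7.83 in Parental and 9.03 to 9.53 in the resistant arrays (1.37 ± 0.09), with its other probes between -0.01 and 1.18. The protease CTSA changed by 0.85 ± 0.09. Of 26 chaperones 9 were higher and 2 lower, and 1 and 8 under centring, where 3944 of all 13769 genes were lower. HSPA1B was above by 1.05 ± 0.11. Its nearly identical neighbour HSPA1A changed by -0.11, with resistant arrays that overlapped Parental. HSP90AA1 was above by 0.91 ± 0.10 (0.796 and 0.565 on other probes), without a call under centring (0.35). The co-chaperone DNAJB1 was below (-1.17 ± 0.12). Under centring LAMP2 changed by 0.89, CTSA by 0.45 and HSPA1B by 0.55.

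Adhesion and matrix genes moved by member. Integrin ITGB5 read 9.96, 10.02 and 10.07 in Parental, 7.96, 7.94 and 7.93 in PF1066R and 8.06, 8.50 and 8.39 in X376R (-1.88 ± 0.10), and of its 4 other probes 2 gave -1.35 and -1.95 and 2 gave -0.05 and 0.03. The collagen receptor subunit ITGA2 was below (-1.16 ± 0.10), with -1.17 in PF1066R and -1.16 in X376R. Of 18 integrin and focal adhesion genes 4 were higher and 4 lower, against 13.2% and 13.4% of all tested genes. Laminin LAMB3, a part of the epithelial basement membrane, was below by a change of -1.35 ± 0.10 (another probe gave -0.13), while LAMB2 and the collagen COL4A5 were above by 1.00 ± 0.11 and 1.00 ± 0.09. Among 18 collagens and laminins 7 were higher and 3 lower. Of 20 epithelial junction genes and keratins 4 were lower and 2 higher. Claudin CLDN10 read 11.12, 11.30 and 11.36 in Parental, 10.65, 10.53 and 10.57 in PF1066R and 8.03, 7.96 and 8.16 in X376R (-1.95 ± 0.09). E-cadherin CDH1 and the membrane protease ST14 were below (-0.64 ± 0.10 and -0.83 ± 0.10), and the call of CDH1 was lost with brightness in the fit (-0.49). Of 16 TGF-beta, BMP and YAP targets 6 were higher and 3 lower (2 and 6 under centring). The list median was -0.241 in PF1066R and 0.505 in X376R, and 12 of the 16 differed between the lines. BAMBI, a decoy receptor, and the signal carrier SMAD3 were below (-1.65 ± 0.10 and -1.37 ± 0.14). The BMP target ID3 was above by 1.55 ± 0.12, nearly all of it in X376R (2.82, against 0.28 in PF1066R). Its PF1066R change did not pass the limma test against Parental (adjusted p = 0.176). Under centring LAMB2 changed by 0.65, CDH1 by -1.13 and ST14 by -1.27.

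Of 21 lung lineage and stem cell factors 3 were higher and 6 lower. SOX2, a factor of airway basal and stem cells, read 7.88, 7.94 and 7.89 in Parental, 9.50, 9.49 and 9.55 in PF1066R and 9.37, 9.09 and 9.65 in X376R (1.54 ± 0.11), and another probe gave 1.42. HOPX, a factor of alveolar cells, was below background in Parental. In the mean of both lines it was at least 3.05-fold higher (measured change 1.86 ± 0.10, adjusted p = 6.12e-10). Its measured change was 1.44 in PF1066R and 2.28 in X376R, though another probe gave 0.17 for both lines. NKX2-1, the lineage factor of lung adenocarcinoma, read 7.72, 8.03 and 7.99 in Parental and 8.54 to 9.25 in the resistant arrays (0.95 ± 0.10), a call lost under centring (0.48). KLF4 was below (-0.80 ± 0.11), and another probe gave -0.31.

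Of 16 p53 targets 6 were higher and 3 lower (2 and 5 under centring). GDF15, a secreted stress cytokine, read 12.43, 12.61 and 12.48 in Parental, 11.78, 12.12 and 12.09 in PF1066R and 9.20, 9.51 and 9.29 in X376R (-1.84 ± 0.11). The death receptor TNFRSF10B changed by -1.72 ± 0.12, while another of its probes gave -0.20. Of 23 BCL2 family and apoptosis genes 2 were higher and 4 lower, and BIK, a BH3-only killer protein, was below (-1.06 ± 0.09). Among 13 S100 proteins 3 were higher and 4 lower, with S100P at -1.06 ± 0.10 and S100A2 at -0.96 ± 0.10. Of 21 ABC transporters 3 were higher and 4 lower. Beside these lists, 13.2% of all tested genes were higher and 13.4% lower. ABCC3, which exports organic anions, was below (-0.98 ± 0.12). Under centring S100P changed by -1.64.

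Genes next to each other on a chromosome were also counted. In GRCh38.p14 order, the next tested gene was also above for 157 of 1248 genes above (12.6%, against 9.1% of all genes) and also below for 189 of 1377 below (13.7%, against 10%). Runs of at least 3 numbered 15 above and 24 below, and runs of 4 numbered 5 and 7. They included H2BC4, H2AC6, H2BC5 and H2BC6, and also MBIP, SFTA3 and NKX2-1, which were picked out after their values were seen. Neighbouring families can share sequence and probes, and the part of this in the counts was not tested.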

How the data were processed

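Total RNA of 9 samples of H3122 cells, 3 per line, was measured on Illumina bead arrays. RNA was taken with Trizol and cleaned on RNeasy columns with DNase, per the labels' protocols. The deposited signal table lists a linear intensity for each probe on each array, with no detection p. The authors also deposited their own normalized log2 values, used here only as an alternative. The submitters' processing notes name R 2.15, and no source used here gives the scanner software.

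The table has 47323 probes, 1 without a value. A gene symbol was given for 30113 of them singly, several for 8 and none for 17202, and 30074 named probes matched the GRCh38.p14 gene table. Background was corrected with limma 3.58.1 (normexp, offset 50) in R 4.3.3, followed by quantile normalization and log2. A probe had to exceed the highest of 92 probes on at least 3 of 9 arrays, and 26814 did, 18575 of them named. These 92 were taken for external controls from their ID range, which the tables do not name. The probe with the highest mean stood for a gene, which gave 13769 genes, 3662 with several probes and 8200 above background on all 9 arrays.

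A limma model with 1 mean per line gave (PF1066R + X376R)/2 minus Parental and the comparisons of single lines, with 6 residual and 10.7 prior degrees of freedom, Benjamini-Hochberg adjustment and a threshold of 0.05. The median SE was 0.102 for both lines and 0.118 for 1 line. The number of arrays limits the precision. The code was tested on simulated data.

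Members and the 39 lists, 4 of them cell type markers, were chosen with earlier results of these data known. Named were the 15 highest and 15 lowest changes among separated genes past the threshold, the 10 highest and 10 lowest by the smaller change of the lines, the 10 most even ones of at least 2-fold, up to 4 per list, and a fixed group of receptors, of which INSR was not measured here. Of the 160 genes this gave 38 are not described in the report. ASNS and MCM6 were added for their promoters, and SPRY2, SPRY4, SPRED3, DUSP2 and DUSP7 after their values were seen.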

Additional observations from a re-analysis of the deposited data

Results flagged for a closer look

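For 78 of the 129 genes named, the changes in the resistant lines differed by the test of the difference itself (X376R minus PF1066R, limma, adjusted p from 1.37e-12 to 0.0496). Each value below is that difference of log2 signals, which uses no Parental array. No gene named had 1 resistant array standing far from the other 5 by Dixon's limit, applied to both lines together. For the 78 genes whose lines differed, the range used for that limit includes the distance between the lines. For those genes the result does not tell whether 1 array stood out within its line.

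Among genes above Parental on every array, X376R was the further by 3.45 for VIM, 2.86 for CYP1A2, 2.73 for H2AC18, 2.54 for ID3, 2.49 for PAEP, 1.87 for H2BC21, 1.84 for H2AC6, 1.78 for H2BC5 and 1.36 for VEGFC. Smaller leads of X376R were 1.04 for TYMS, 0.93 for P4HA2, 0.84 for NDRG2, 0.84 for HOPX, 0.83 for CDH5, 0.81 for CTSA, 0.75 for LAMB2, 0.65 for EFNA1 and 0.60 for MCM2. The least were 0.48 for MCM5, 0.48 for NKX2-1, 0.47 for CYP1A1, 0.45 for COL4A5, 0.41 for HSP90AA1, 0.38 for AKR1C3, 0.38 for CDC45 and 0.31 for LAMP2.

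PF1066R was the further above Parental for MSMB (-2.17), RNASE1 (-2.01), IFIT1 (-1.26), MX1 (-1.18), MSMO1 (-0.97), ACAT2 (-0.93), IFI6 (-0.93), HMGCS1 (-0.85), HLA-F (-0.81), PSMB8 (-0.49), ACSL1 (-0.40) and NDUFA2 (-0.40).

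Below Parental, X376R was the further for TFF1, with a measured difference of -3.14; its X376R arrays were not above background, so it was at least 7.4-fold lower there than in PF1066R. X376R was also the further for GDF15 (-2.66), CLDN10 (-2.53), BPIFA1 (-2.48), FCGBP (-2.36), ALPL (-2.23), SLPI (-1.82), CFB (-1.82), HK2 (-1.58), CYBA (-1.54), IFITM2 (-1.48) and ALDH2 (-1.46). It was so by less for DDIT4 (-1.35), DUSP5 (-1.30), HMGA1 (-1.18), DUSP6 (-1.14), TNFRSF10B (-1.12), IGFBP3 (-0.98), CXCL8 (-0.90), S100P (-0.89), BAMBI (-0.83), PHLDA1 (-0.82) and SRXN1 (-0.70). The remaining such genes were BIK (-0.63), TRIB3 (-0.60), GSR (-0.48), SMAD3 (-0.47), CDH1 (-0.46) and AARS1 (-0.36). MUC2, likewise dim in X376R, had a measured difference of -0.41 and was at least 1.25-fold lower there.

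PF1066R was the further below Parental for SERPINE2 (1.79), ALDH1A3 (0.87), PRSS3 (0.60) and ITGB5 (0.38). For 6 genes the 6 resistant arrays as a whole lay on neither side of Parental, and X376R was the lower line. SPRY4 (-1.75) and EGFR (-0.41) lay above Parental on every PF1066R array and below it on every X376R array. ALK (-2.16) lay above on every PF1066R array, with X376R overlapping Parental. EML4 (-0.49) and SPRY2 (-0.38) lay below on every X376R array, with PF1066R overlapping Parental. For ERBB3 (-0.40) both lines overlapped Parental.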

How the results depend on the processing

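With each array centred on its median, 332 genes were higher and 3944 lower, 245 lay above and 2833 below Parental on every array, and 262 of these differed between the resistant lines; the reversed changes were -0.11 for MAT2B (0.39 before), -0.20 for AHR (0.29), -0.048 for CCNB2 (0.46), -0.13 for CDC20 (0.38), -0.14 for ILK (0.36), -0.074 for MTOR (0.36) and -0.065 for S100A13 (0.51). With array brightness in the fit 635 were higher and 624 lower, and 1254 genes passed for PF1066R and 1396 for X376R. Brightness ran with the lines, and its part was not tested. Requiring each line's own comparison to pass, which share the Parental arrays, left 754 higher and 888 lower. With the line means as the only samples of a class, limma called 0 higher and 0 lower, and 1290 genes had an unadjusted p under 0.05; that fit has 1 residual degree of freedom. The labels do not say what the replicate numbers mark. Deviations of same-numbered arrays correlated at -0.048 to 0.221, over 0.1 in 5 of 9 pairs, against -0.231 to 0.141 and 3 of 18 for other numbers; since not every pair exceeded 0.1, the numbers were not taken to pair the samples. As a hint from the data, the arrays numbered 2 correlated with each other at 0.144 to 0.221, while the best match of an array in another line had its own number in 10 of 18 cases. A replicate block gave 1949 higher and 1990 lower and changed no call of the genes named. Without 1 array, higher genes numbered 1389 to 1867, lower genes 1360 to 1882, genes above 1358 to 1654, genes below 1519 to 1879, those of them differing between lines 425 to 618, calls for PF1066R 1865 to 2777 and for X376R 3101 to 3845. Of the 166 named genes, 128 kept direction and side of the threshold under centring and 142 with brightness in the fit, and at most 4 lost the call under any other setting that fits single arrays, where KLF4 lost the call when all 9 arrays had to exceed background (-0.31). A background limit at the 95th percentile of the controls, and controls used as negative probes, were chosen after seeing the data. Among dim genes, an offset of 16 gave 2.92 for HOPX, 2.73 for CDH5, 1.61 for COL4A5, -1.40 for FGF19, 1.40 for VEGFC, 0.75 for KIT and 0.48 for IRS1. The mean of a gene's probes gave smaller changes for HOPX (1.01), LAMP2 (0.82), MSMO1 (0.83), ITGB5 (-1.04), LAMB3 (-0.74), TNFRSF10B (-0.96), ACAT2 (0.66), LSS (0.47), GSR (-0.37), RPL13 (-0.34) and FGFR3 (0.33).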
